A study of Mus musculus with 2 samples.

Results

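The subunit genes of the mitochondrial ribosome were examined in the mouse mammary gland 1 day into involution, when the gland regresses once suckling ends. Members were all probe sets of the array whose single platform gene symbol begins with Mrpl (large subunit) or Mrps (small subunit) and a digit. They came to 156 probe sets of 76 genes, 47 of the large and 29 of the small subunit, out of 34945 probe sets of 18193 genes with a single symbol. The day 1 group was female CD1 mice killed 1 day after their pups were removed by force, and the day 0 group was CD1 mice killed at that removal, on day 10 of lactation. The mice had been bought at 6 weeks of age, litters had been set to 6 pups, and the labels name no transgene or drug in either group. For each day the RNA of 5 mice was combined and put on 1 Affymetrix Mouse Genome 430 2.0 array. There is thus no replicate array, no spread between mice can be seen, and no difference below has a test, a p-value or a standard error.

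Mitochondria carry their own ribosome, which translates the few proteins of the respiratory chain that mitochondrial DNA encodes. All of its proteins are encoded in the nucleus, made in the cytosol and imported. Many have a bacterial counterpart, and others are found only in mitochondria. Secretory cells of the lactating gland are rich in mitochondria, and they are lost or reverted as the gland involutes.

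The arrays themselves differed. The deposited signals had a trimmed mean of 250 on both, but the middle of the signal distribution lay at 60.1 for day 1 and 94.2 for day 0. The 15 hybridisation control probe sets used had a median log2 ratio of -1.16, and scaling on them would put the members' median at 1.21 and that of all genes at 0.97. The markers of secretory epithelium were bright on both arrays, as in lactating gland, with Csn2 at 31909.0 on day 1 and 80907.5 on day 0. All 4 secretory markers were at least 2-fold lower, all 4 luminal keratins at least 2-fold higher, and the summed signal of 4 macrophage markers was 31734.9 on day 1 and 6054.5 on day 0, most of it from Cd14. Of the other macrophage markers, Cd68 had 508.2 on day 1 and 173.1 on day 0, Csf1r 1840.9 on day 1 and 1399.0 on day 0, and Adgre1 375.2 on day 1 and 665.6 on day 0. The sum of 3 brown adipocyte markers was 18870.0 on day 1 and 67963.1 on day 0, nearly all of it from Cidea. It thus follows 1 gene and was not read as an amount of brown fat. Ucp1 went the other way, with 384.4 on day 1 and 18.8 on day 0, the day 0 value being under the floor defined below. Of the measured markers of myoepithelium, adipocytes, fibroblasts and skeletal muscle, 0 were at least 2-fold different. Among endothelial markers 1 was at least 2-fold lower, and among lymphocyte markers 1 was lower and 1 higher. The part of cell composition in the ratios below was not tested.

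Mitochondrial ribosomal protein genes differed little between the days. Signals under 77.7, the median over both arrays, were set to that floor, and a gene counted as measured if 1 array or both exceeded it. Each gene was read from its brightest probe set by mean signal. All 76 genes were above the floor on both arrays, and 0 of them were at least 2-fold lower and 0 at least 2-fold higher on day 1. Among all 13239 measured genes the shares were 13.3% lower and 10.4% higher. These shares depend on the processing. With the mean over each gene's probe sets they were 6.13% lower and 4.79% higher, and with a floor at the 75th percentile 7.72% and 10.9%. In both settings 0 members were at least 2-fold different. After median centring, which moved the median of all genes by over 0.1 log2 to 0.02, 2 members were at least 2-fold higher, and 55 were after scaling on the hybridisation controls. Of all measured genes, 13.5% were at least 2-fold higher after median centring and 48.7% after scaling on those controls. In whole tissue, fewer cells of a type and less RNA per cell cannot be told apart. The log2 ratio of day 1 over day 0 signal ran from -0.89 to 0.98 over the 76 genes, and the middle 50% lay between -0.24 and 0.26. It was above 0 for 41 genes and below 0 for 35, against 5732 above and 7505 below among all measured genes.

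The range was also narrow beside genes in the same signal range. Genes whose mean signal lay in the range of the 76 genes, 121.4 to 3251.0, numbered 9174, of which 14.6% were at least 2-fold lower and 13.0% at least 2-fold higher. These genes were dimmer than the members, with median signals of 397.4 on day 1 and 370.2 on day 0, against 703.1 and 738.7. At mean signals of 400 to 800, which hold 27 members, 8.6% of measured genes were at least 2-fold lower and 13.7% higher. At 800 to 1600, with 25 members, the shares were 9.3% and 15.7%. A difference of under 1.5-fold was seen in 61 of the 76 genes, or 80.3%, against 52.4% of all measured genes and 50% of those in the signal range. The SD of the log2 ratios across genes was 0.42 for the 76 genes, against 0.93 for all measured genes. With the mean over each gene's probe sets these were 0.37 and 0.65. These SDs describe the spread between genes and not between mice.

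The median log2 ratio was 0.05 for the 76 genes and -0.12 for all measured genes, a difference of 0.17. That difference was 0.02 when only genes in the same signal range were taken as the background. It turned to -0.07 after loess and -0.06 after quantile normalization, so no direction relative to other genes can be given. Both normalizations also put the members' own median below 0, at -0.08.

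**Figure D1:**
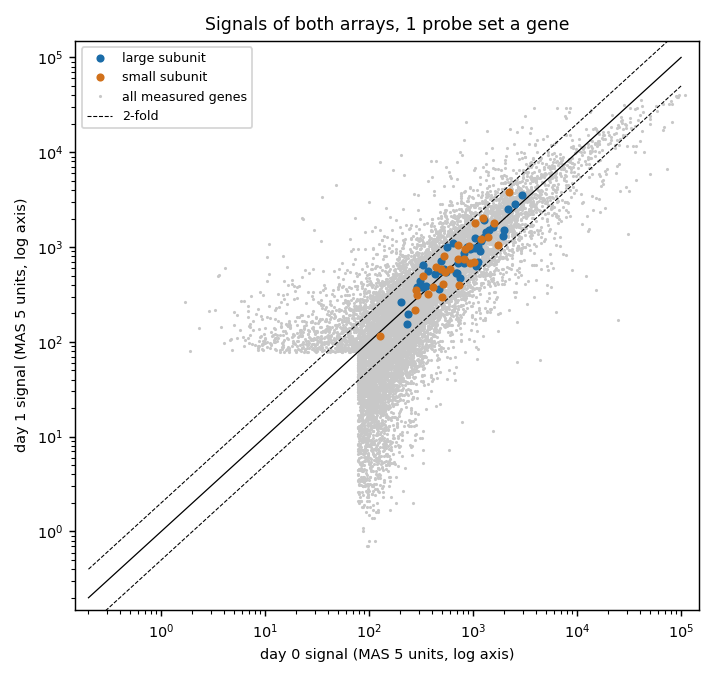
Day 1 signal (vertical) against day 0 signal (horizontal) on log axes, with 1 point a gene, large subunit genes in blue, small subunit genes in orange and all measured genes in grey. The 76 subunit genes lie between the dashed 2-fold lines, whereas, once signals under the floor are set to it, 13.3% of all measured genes are at or below the lower line and 10.4% at or above the upper line. Signals are drawn without the floor.

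The large and small subunits had close medians. The 47 large subunit genes had a median log2 ratio of 0.05, with quartiles of -0.24 and 0.25. The 29 small subunit genes had a median of 0.03, with quartiles of -0.21 and 0.31. The median of the large minus that of the small subunit was 0.03, and it was -0.04 after both loess and quantile normalization. At least 1.5-fold lower on day 1 were 3 large and 3 small subunit genes, and at least 1.5-fold higher were 4 and 5. The 6 lower and 9 higher genes are 7.89% and 11.8% of the members, against 27.2% and 20.4% of all measured genes.

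Symbols do not give the subunit in every case. In solved structures of the mammalian mitochondrial ribosome the products of Mrps18a and Mrps30 sit in the large subunit, and the product of Mrps36 is now known as a component of the 2-oxoglutarate dehydrogenase complex. Mrps18a had 2037.3 signal units on day 1 and 1237.6 on day 0. Mrps30 had 321.4 on day 1 and 371.5 on day 0. Mrps36 had 410.1 on day 1 and 514.3 on day 0. With these genes placed by structure, the medians were 0.052 for 49 large and 0.051 for 26 small subunit genes. Subunits with a bacterial counterpart and those specific to mitochondria had medians of 0.05 (47 genes) and 0.04 (28 genes).

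**Figure D2:**
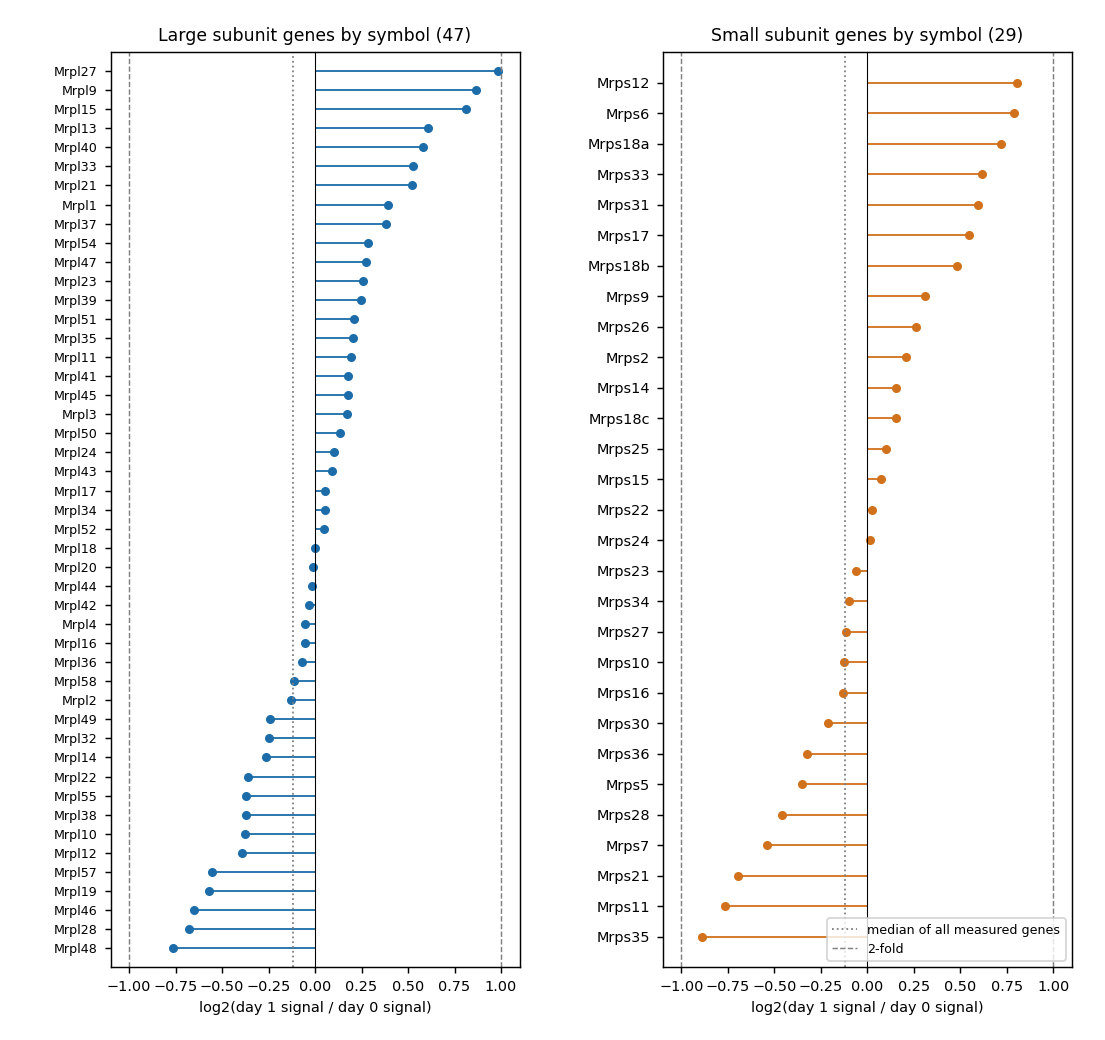
Log2 ratio of day 1 over day 0 signal (horizontal) for each of the 47 large subunit genes (left) and 29 small subunit genes (right), sorted by ratio. All points lie inside the dashed 2-fold lines, and the ratios run from -0.89 (Mrps35) to 0.98 (Mrpl27) on both sides of the dotted median of all measured genes.

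The lowest ratios in the large subunit were those of Mrpl48, Mrpl28, Mrpl46, Mrpl19 and Mrpl57. Mrpl48, a mitochondria-specific protein of the central protuberance at the top of the subunit, had a signal of 629.9 on day 1 and 1069.8 on day 0 (1.70-fold lower on day 1). Mrpl28, the counterpart of bacterial L28, had 700.7 on day 1 and 1119.7 on day 0 (1.60-fold lower). Mrpl46, another protein of the central protuberance, had 475.3 on day 1 and 746.8 on day 0 (1.57-fold lower). The other probe sets of Mrpl48 and Mrpl28 were lower on day 1 as well, with log2 ratios of -0.55 for Mrpl48 and of -0.51 and -1.07 for Mrpl28. Mrpl57, a mitochondria-specific subunit, had 1323.3 on day 1 and 1943.2 on day 0 (1.47-fold lower), and its dimmer probe set had a log2 ratio of -1.26. Mrpl19, the counterpart of bacterial L19, had 155.1 on day 1 and 230.3 on day 0 (1.49-fold lower), but the log2 ratios of its 3 measured probe sets ran from -0.59 to 0.95, so no direction can be given for it.

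The highest ratios in the large subunit were those of Mrpl27, Mrpl9, Mrpl15 and Mrpl13. Mrpl27, whose bacterial counterpart reaches towards the peptidyl transferase centre, had a signal of 653.8 on day 1 and 330.4 on day 0 (1.98-fold higher on day 1), just under the 2-fold line. Mrpl9, the counterpart of bacterial L9, had 1011.5 on day 1 and 555.9 on day 0 (1.82-fold higher), and its 3 probe sets had log2 ratios from 0.38 to 0.86. Mrpl13, the counterpart of bacterial L13, had 1934.1 on day 1 and 1267.5 on day 0 (1.53-fold higher), and its other probe sets were higher on day 1 too, the largest by at least 1.47 log2 from a day 0 signal at the floor. These 3 genes were higher on day 1 in each measured probe set, of which Mrpl27 has 1. Mrpl15, the counterpart of bacterial L15, had 1112.9 on day 1 and 634.3 on day 0 (1.75-fold higher). The log2 ratios of its 6 measured probe sets lay between -0.79, a bound, and 0.81, that of the probe set used. The remaining ones had 0.20, 0.21, 0.21 and -0.11, so its high ratio rests on 1 probe set.

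In the small subunit the lowest ratios were those of Mrps35, Mrps11, Mrps21, Mrps7 and Mrps28. Mrps35, a mitochondria-specific protein of the subunit head, had a signal of 394.4 on day 1 and 730.6 on day 0 (1.85-fold lower on day 1), the lowest ratio of the 76 genes. Mrps11, the counterpart of bacterial S11, had 295.0 on day 1 and 501.0 on day 0 (1.70-fold lower), and its other probe set gave a bound of -0.52 log2. Mrps21, the counterpart of bacterial S21, had 1058.6 on day 1 and 1717.3 on day 0 (1.62-fold lower), with -0.47 log2 at its other probe set. Each measured probe set of these 3 genes was lower on day 1, although Mrps35 has only 1. Mrps7, the counterpart of bacterial S7, had 701.4 on day 1 and 1020.4 on day 0 (1.46-fold lower). Mrps28, the counterpart of bacterial S1, had 673.5 on day 1 and 927.3 on day 0 (1.38-fold lower).

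The highest ratios in the small subunit were those of Mrps12, Mrps6, Mrps18a and Mrps33. Mrps12, the counterpart of bacterial S12 at the decoding centre, had a signal of 1804.3 on day 1 and 1031.9 on day 0 (1.75-fold higher on day 1). Mrps6, the counterpart of bacterial S6, had 3811.3 on day 1 and 2207.8 on day 0 (1.73-fold higher), and 0.23 log2 at its other probe set. Mrps33, a mitochondria-specific subunit, had 800.5 on day 1 and 522.5 on day 0 (1.53-fold higher). The probe sets used for Mrps12 and Mrps6 carry the suffix _s_at, which marks probes shared between transcripts. In the large subunit, those used for Mrpl15, Mrpl28 and Mrpl48 carry the suffix _x_at, which was left out together with _s_at in an alternative below. Mrps18a (1.65-fold higher) belongs to a family of 3 paralogs, of which Mrps18b had a log2 ratio of 0.48 and Mrps18c 0.15.

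The brightest probe sets of the large subunit belonged to Mrpl39, Mrpl41 and Mrpl51, which are all specific to mitochondria, and differed little between the days. Mrpl39 had 3528.7 signal units on day 1 and 2973.3 on day 0. Mrpl41 had 2873.3 on day 1 and 2540.9 on day 0, and Mrpl51 had 2496.0 on day 1 and 2157.5 on day 0. In the small subunit Mrps14, with 1782.7 on day 1 and 1602.9 on day 0, was among the 3 brightest beside Mrps6 and Mrps18a. At 2 further probe sets it had 1.01 log2 and, as a bound, -0.09 log2. Signals of different probe sets cannot be compared as transcript levels.

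Neighbours within the ribosome did not share a direction throughout. These groups were made with the values known, from positions in solved structures. Of the central protuberance proteins, Mrpl48, Mrpl46 and Mrpl38 had log2 ratios of -0.76, -0.65 and -0.37, whereas Mrpl40 had 0.58. Of the stalk proteins, which contact translation factors, Mrpl12 and Mrpl10 had -0.39 and -0.38 and Mrpl11 had 0.19, but -0.41 and -0.03 at its other measured probe sets. At the exit of the peptide tunnel, Mrpl23, Mrpl45 and Mrpl24 had 0.26, 0.18 and 0.10, and Mrpl22 had -0.36. Around the peptidyl transferase centre, Mrpl2, Mrpl3 and Mrpl16 had -0.13, 0.17 and -0.05, whereas Mrpl27 had 0.98, the highest ratio of all members. Mrpl58, a peptidyl-tRNA hydrolase built into the large subunit, had 968.4 signal units on day 1 and 1045.8 on day 0.

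Probe sets of the same gene scattered about as widely as the genes. Of the 156 probe sets, 126 were measured. A 2-fold or larger difference was seen in 4 that were lower and 3 that were higher on day 1, against 13.1% and 9.08% of all measured probe sets. At 1.5-fold 16 were lower and 17 higher, against 27.8% and 18.4%. In 25 genes more than 1 probe set exceeded the floor on each day, and within such a gene the pooled SD of the log2 ratio was 0.48, against 0.42 between the 76 genes. The brightest and the second brightest probe set lay on the same side of 0 in 15 of the 25.

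More than 1 probe set was measured for 33 genes, and 11 of these had a further probe set on the opposite side of 0 by 0.5 log2 or more. In Mrpl1, Mrpl21, Mrpl35, Mrpl50, Mrps2, Mrps9, Mrps25 and Mrps31 the probe set used was higher on day 1 and another was lower, as in Mrpl15. In Mrpl19 and Mrpl49 the used probe set was lower on day 1. Mrps2, the counterpart of bacterial S2, had 960.8 signal units on day 1 and 832.4 on day 0 at the brighter probe set, and a log2 ratio of -1.09 at the dimmer. Mrps9 had 349.0 on day 1 and 281.8 on day 0, with its 4 probe sets between -1.07 and 0.68 log2. Mrps31 had 496.8 on day 1 and 328.9 on day 0, and its dimmer probe set gave -0.75 log2 as a bound. The ratios of Mrpl1 (0.39), Mrpl21 (0.52), Mrpl35 (0.20), Mrpl50 (0.13), Mrps25 (0.10) and Mrpl49 (-0.24) share this limit. On the dim side, 9 member probe sets were at the floor on day 1 alone and 4 on day 0 alone.

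**Figure D3:**
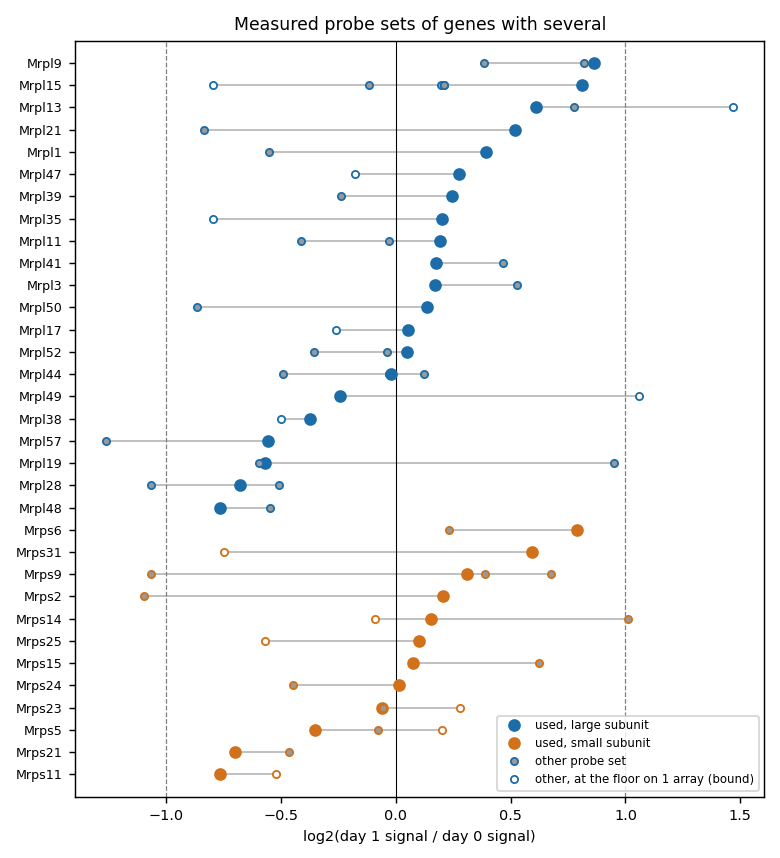
Log2 ratio of day 1 over day 0 signal (horizontal) for every measured probe set of the 33 genes with several. Large filled points are the probe sets used, small grey points the other probe sets, and open points those at the floor on 1 array, whose ratio is a bound. In 11 genes a small point lies 0.5 log2 or more beyond 0 on the opposite side from the used one.

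Sequences upstream of the transcription start are shown for the members at both ends of the range and for members that share a start region with another gene. They were taken from RefSeq (GRCm38.p6), which held a promoter of 67 of the 76 genes. Each is given on the strand of the gene, up to the start site, with at most 150 bases, 5′ to 3′, and it is cut at the start site of a gene on the other strand where that lies nearer. Mrpl13, Mrpl15, Mrpl19, Mrpl38, Mrpl4, Mrpl54, Mrps28, Mrps34 and Mrps35 had no entry. Capitals mark a match of the NRF1 core CGCNTGCG.
Mrps11 with Mrpl46 (chr7:78783090-78783130, plus strand): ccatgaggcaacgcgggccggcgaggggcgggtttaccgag
Mrpl27 with Eme1 (chr11:94653744-94653790, plus strand): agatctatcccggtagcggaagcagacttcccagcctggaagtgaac
Mrps12 with Sars2 (chr7:28741822-28741967, minus strand): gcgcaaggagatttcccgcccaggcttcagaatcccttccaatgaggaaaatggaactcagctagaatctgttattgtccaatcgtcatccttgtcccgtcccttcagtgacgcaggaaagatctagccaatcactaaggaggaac
Mrpl9 (chr3:94443186-94443335, plus strand): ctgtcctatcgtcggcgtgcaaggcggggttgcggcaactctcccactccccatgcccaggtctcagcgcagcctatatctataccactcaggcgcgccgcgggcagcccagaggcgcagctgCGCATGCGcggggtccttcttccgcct
Mrpl47 (chr3:32736756-32736905, minus strand): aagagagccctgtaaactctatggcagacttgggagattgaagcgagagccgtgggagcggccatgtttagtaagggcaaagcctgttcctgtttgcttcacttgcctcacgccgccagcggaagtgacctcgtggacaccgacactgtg
Mrps21 (chr3:95871515-95871664, minus strand): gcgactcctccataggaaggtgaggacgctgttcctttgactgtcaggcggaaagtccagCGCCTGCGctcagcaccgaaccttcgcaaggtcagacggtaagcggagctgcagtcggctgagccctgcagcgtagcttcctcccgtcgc

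Mrps11 and Mrpl46 are transcribed away from each other from start sites with 41 bases between them, and both were lower on day 1, by log2 ratios of -0.76 and -0.65. Another gene starting on the opposite strand within 1000 bases upstream was found for 24 of the 67 members (35.8%), against 15.8% of 10591 measured genes. For 22 of the 24 that gene was measured too, and it lay on the same side of 0 as the member in 9, with the Mrps11 and Mrpl46 pair counted from both sides. Mrps12 had a log2 ratio of 0.81, whereas Sars2, the mitochondrial seryl-tRNA synthetase gene that starts 146 bases away, had 141.4 signal units on day 1 and 175.0 on day 0 (-0.31). Mrpl47 had 379.6 signal units on day 1 and 314.0 on day 0 (0.27), and Ndufb5, a complex I subunit gene that starts 307 bases away, had 2287.2 on day 1 and 5270.1 on day 0 (-1.20). The members and partners thus had like ratios in the first of these pairs, and opposite signs in the pairs of Mrps12 and Mrpl47. The other partners at least 2-fold different were Ncapd2 beside Mrpl51 (1.73), Ppp1r10 beside Mrps18b (-1.39) and 2610507I01Rik beside Mrpl55 (-1.14, a bound). With Ndufb5, these are 4 of the 22 measured partners. Among all measured genes 13.3% were at least 2-fold lower and 10.4% higher, so this count is near the background.

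Motifs were searched on both strands from 250 bases before to 50 after the start. The NRF1 core CGCNTGCG was found in 19 of the 67 member promoters (28.4%), against 8.4% of 27025 promoters and 16% of those of measured genes. CCGGAAG, bound by ETS factors such as GABP, was found in 24 (35.8%), against 9.1% of all and 16.6% of measured genes' promoters. AAGATGGCG, a YY1 motif, was found in 8 (11.9%), against 1.5% and 2.9%. The E-box CACGTG was found in 5 (7.5%), against 7.2% and 9.9%, and CCAAT in 26 (38.8%), against 37.9% of each. NRF1 and ETS matches occurred together in 8 promoters, and matches of different motifs overlapped in 0.

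Members with the NRF1 core had a median log2 ratio of -0.12, and those without it 0.10. A longer form, with a G before and a C after the core, was searched too. It gave 12 members (17.9%, against 4.8% of all promoters and 9.5% of those of measured genes). The medians were 0.02 with it and 0.08 without it, so the sign for members with a match depended on the motif's length. Members with CCGGAAG had a median of 0.07, and those without it 0.02. The NRF1 matches printed above belong to genes at both ends of the range, Mrpl9 (0.86) and Mrps21 (-0.70).

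By their brightest probe sets, the measured subunits of the mitochondrial ribosome with other symbols lay within the range of the 76 genes. Dap3, a GTP-binding protein of the small subunit, had 967.3 signal units on day 1 and 1135.8 on day 0. Chchd1 had a log2 ratio of 0.49 and Ptcd3 -0.18. A further probe set had -0.98 log2 in Ptcd3 and -0.55 in Gadd45gip1. Of the 4 measured genes of this kind, 0 were at least 2-fold different, against 13.3% lower and 10.4% higher among all measured genes. With only 4 genes, this count cannot be told from those shares. Of 10 measured translation factors, 1 was at least 2-fold higher and 0 lower, which for the higher genes is near the 10.4% of all measured genes. It was Tsfm, the exchange factor of the mitochondrial elongation factor, with 245.1 on day 1 and 101.4 on day 0 (2.42-fold higher). Tufm, that elongation factor, had 525.4 on day 1 and 351.6 on day 0, with a probe set at -0.54 log2, and Gfm2, which splits the ribosome after termination, had a log2 ratio of -0.61.

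Of 19 measured factors that assemble the ribosome, 3 were higher and 3 lower on day 1 by 2-fold or more. Among all measured genes 10.4% were higher and 13.3% lower, so these shares are near the background. Mtg1, a GTPase of large subunit assembly, had 260.9 on day 1 and 32.2 on day 0 (at least 3.36-fold higher). Rpusd4, a pseudouridine synthase, was at least 2.72-fold higher (211.5 on day 1, 58.0 on day 0), and Fastkd2 was the other higher gene (2.29-fold). Rbfa, which matures the small subunit RNA, had 396.6 on day 1 and 916.5 on day 0 (2.31-fold lower), and the RNA methyltransferase genes Mrm2 and Mrm3 were the other lower ones. The log2 ratio of Mrm3 was 0.11 after scaling on the hybridisation controls. The SD between these 19 genes was 0.83 log2, against 0.42 for the 76 ribosomal proteins and 0.93 for all measured genes. Several are dim, and Mtg1, Rpusd4 and Mrm2 were at the floor on 1 array.

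Mitochondrial aminoacyl-tRNA synthetases had a median log2 ratio of -0.21 over 16 genes, against -0.12 for all measured genes. Of the 16, 1 was at least 2-fold lower and 0 higher, against 13.3% and 10.4% of all measured genes. Aars2, for alanine, had 155.6 signal units on day 1 and 426.5 on day 0 (2.74-fold lower). Cars2 and Wars2 had log2 ratios of -0.60 and -0.51. Of 15 genes of mitochondrial transcription and RNA processing, 0 were at least 2-fold different by their brightest probe sets. Among all measured genes 13.3% were lower and 10.4% higher. Elac2 had a log2 ratio of -0.02, but its 3 measured probe sets ran from -2.02 to 1.21, so no direction can be given for it. The extremes were Tfb2m, a transcription initiation factor, with 634.1 on day 1 and 325.5 on day 0, and Mterf1a with 135.8 on day 1 and 263.6 on day 0. Ptcd1 had a log2 ratio of -0.78, and Tfam, which packages mitochondrial DNA, had 537.1 on day 1 and 393.9 on day 0.

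Among 12 regulators of mitochondrial biogenesis, 3 were lower and 1 higher on day 1 by 2-fold or more, against 13.3% lower and 10.4% higher among all measured genes. The lower genes included Pprc1 and Ppargc1b, coactivators of the PGC-1 family. Pprc1 had 246.1 on day 1 and 653.6 on day 0 (2.66-fold lower), and Ppargc1b had 374.4 on day 1 and 804.9 on day 0 (2.15-fold lower), but 0.06 log2 after scaling on the hybridisation controls. The third of the family, Ppargc1a, was dim, with 30.3 on day 1 and 119.2 on day 0. Nrf1, the factor that binds the NRF1 motif, was at least 2.34-fold lower, with 72.5 on day 1 and 182.0 on day 0, although its 3 measured probe sets ran up to 0.33 log2. Gabpb1, a GABP subunit, had 228.3 on day 1 and 100.2 on day 0 (2.28-fold higher). Myc had 498.2 on day 1 and 307.0 on day 0 (1.62-fold higher).

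**Figure D4:**
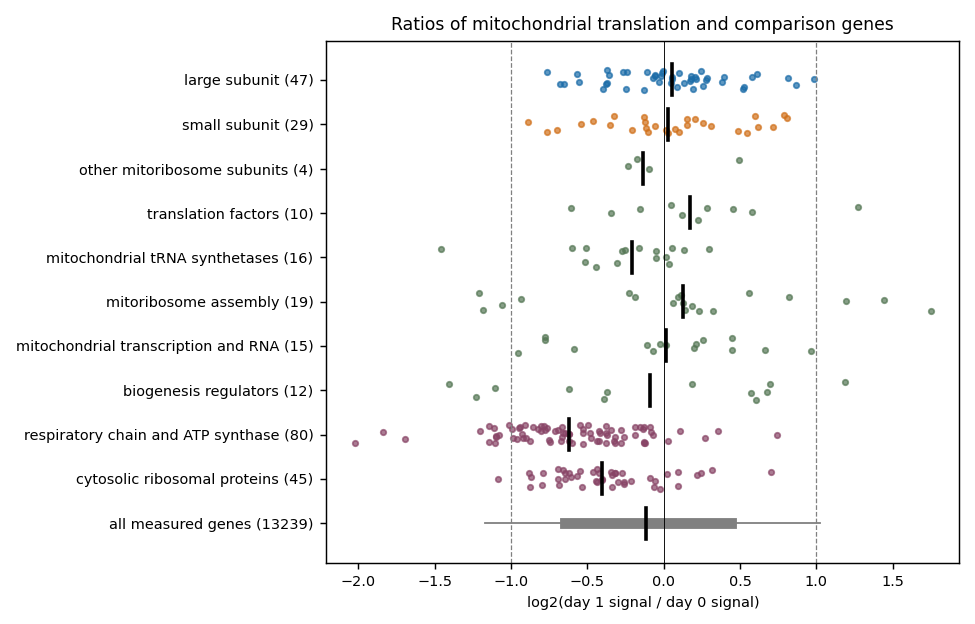
Log2 ratio of day 1 over day 0 signal (horizontal) for each measured gene of the named sets, with the number of genes in brackets and a black bar at the median. For all measured genes the thick bar spans the quartiles and the thin line the 10th to 90th percentile. Respiratory chain genes lie lower (median -0.62) than the genes of both mitochondrial ribosome subunits (0.05 and 0.03).

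Genes of the respiratory chain and ATP synthase lay lower than those of the mitochondrial ribosome. Of 80 measured genes of this set, 12 (15%) were at least 2-fold lower and 0 higher on day 1, so the lower share was near the 13.3% of all genes. At 1.5-fold 42 (52.5%) were lower, against 27.2%. A log2 ratio below 0 was seen in 75 of the 80, against 7505 of all 13239 measured genes. Their median log2 ratio was -0.62 (0.54 after scaling on the hybridisation controls), against 0.05 for the 76 ribosomal genes, a difference of 0.67 between the medians as deposited. That difference stayed between 0.42 and 0.68 in all settings tried, among them the normalizations that turned the sign against all genes. Respiratory chain probe sets were brighter, with a median signal of 2899.2 on day 1 and 4212.4 on day 0, whereas the ribosomal genes had 703.1 on day 1 and 738.7 on day 0. Within the signal range of the ribosomal genes the median of 36 respiratory chain genes was -0.42. The set was taken by symbol, so it may hold genes that are not standard subunits in this tissue. Among the 36 were Cox8c (-1.835), Ndufa4l2 (-1.691, a bound) and, higher on day 1, Cox8b (0.739). With 1 array a day, no test of the difference is possible.

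Genes of the cytosolic ribosome had a median log2 ratio of -0.41 over 45 measured genes (0.76 after scaling on the hybridisation controls). Of these, 1 was at least 2-fold lower and 0 higher, against 13.3% and 10.4% of all measured genes. At 1.5-fold 31.1% were lower, near the 27.2% of all measured genes. The median of the mitochondrial ribosome lay 0.46 above it as deposited, but this difference was -0.03 after quantile normalization and 0.14 after loess. Only 10 genes of this set lay in the signal range of the mitochondrial ones, and their median was 0.09, against 0.05, so no direction can be given. The set was taken by symbol and so holds Rpl22l1, Rpl7l1 and Rps19bp1, which are not standard ribosomal subunits. Of these, Rpl7l1 and Rps19bp1 are among the 10. The 10 are also dim for this set, with Rps6 at 712.2 on day 1 and 571.6 on day 0, so they may represent it poorly. The cytosolic genes had a median signal of 13474.4 on day 1 and 17469.1 on day 0.

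**Figure D5:**
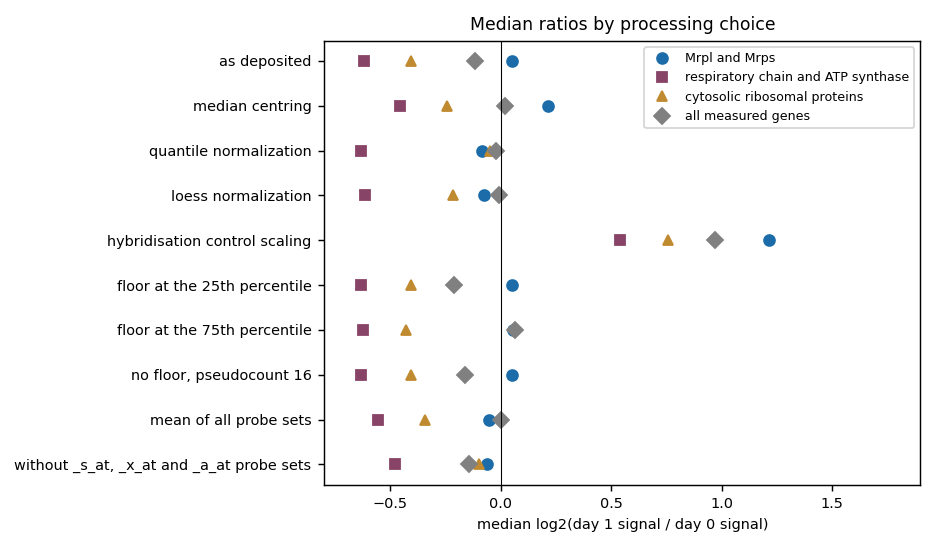
Median log2 ratio of day 1 over day 0 signal (horizontal) under each processing choice (rows), for the 76 mitochondrial ribosomal genes, respiratory chain genes, cytosolic ribosomal protein genes and all measured genes. The respiratory chain median lies below that of the mitochondrial ribosomal genes in each row, whereas the median of all genes lies above it in some rows and below it in others.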

How the data were processed

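Mammary gland RNA of 5 mice was pooled for each of 2 days and hybridised to 1 array a day. The authors deposited MAS 5 signals, probe set intensities on a linear scale made with the Affymetrix Microarray Suite 5.0 algorithms, per the labels. The scaling target and detection calls are not given in the sources used here. Of 45101 probe sets, 64 controls were left out. Genes were named from the platform annotation, and 4 probe sets that list an Mrpl or Mrps gene with a second gene were left out (Mrpl30, Mrpl53 and part of Mrps34). Such symbols were updated through RefSeq (GRCm38.p6).

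Members and lists were chosen with earlier results of these data known. A floor at the median signal was set before log2 ratios were taken. Genes named were, in each subunit, the 5 lowest and 4 highest ratios and the 3 brightest, any at least 2-fold different or at the floor on 1 array (0 genes), all with disagreeing probe sets, and the 3 largest absolute ratios of each list, with Dap3, Tufm, Tfam, Ppargc1a, Ppargc1b and Myc. Genes grouped by position in the ribosome, neighbours of promoters, motifs, Fastkd2, Mrm2, Mrm3 and other members named beside them were chosen after their values were seen. Called means at least 2-fold, with 1.5-fold given too. Calculations used Python with pandas 2.3.3 and statsmodels 0.14.6. The code for ratio and calls was run on simulated data, with differences well above 2-fold, little noise and signals well above the floor. That check does not bear on smaller differences or on dim probe sets. Alternatives were median centring, quantile and loess normalization (span 0.3), scaling on hybridisation controls, the mean over a gene's probe sets, leaving out shared probe sets, a pseudocount of 16 in place of any floor, and a floor at the 25th or the 75th percentile. Second probe sets and sets limited to the members' signal range were added after seeing the data. The number of arrays limits the precision.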

Additional observations from a re-analysis of the deposited data

How the results depend on the processing

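No paired analysis was possible because there is 1 array a day. The median log2 ratio of the 76 genes was 0.215 after median centring, -0.078 after loess, -0.083 after quantile normalization, 1.21 with hybridisation control scaling, -0.054 with the mean of all probe sets and -0.061 without the suffixes _s_at, _x_at and _a_at. Second probe sets (25 genes), an alternative added after seeing the data, gave -0.055. Against all measured genes the difference was -0.011 when the floor was the 75th percentile, -0.071 after loess, -0.062 after quantile normalization, -0.054 with the mean of all probe sets, -0.036 for second probe sets and 0.024 in the members' signal range, also added later. The large minus small subunit difference was -0.082 for second probe sets. Against respiratory chain genes the difference was 0.55 after quantile normalization and over all probe sets, 0.54 after loess, 0.50 with the mean of all probe sets, 0.52 for second probe sets, 0.47 in the members' signal range and 0.42 without the 3 suffixes. Against cytosolic ribosomal protein genes it was 0.14 after loess, -0.035 after quantile normalization, 0.29 with the mean of all probe sets, -0.044 in the members' signal range and 0.036 without the 3 suffixes.

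Genes at least 2-fold lower numbered 1 without the 3 suffixes, 2 for second probe sets and 4 over all probe sets. Counts over all probe sets, here and below, are of 126 measured member probe sets and not of genes. The background shares, of all measured genes or in that setting of measured probe sets with a single symbol, were 13.6%, 10.8% and 12.6%. Genes at least 2-fold higher numbered 2 after median centring, 1 for second probe sets, 3 over all probe sets and 55 with hybridisation control scaling. The background shares, in the same order, were 13.5%, 10.6%, 9.86% and 48.7%. At 1.5-fold, lower genes numbered 3 after median centring, 0 with hybridisation control scaling and 16 over all probe sets. Higher genes numbered 14 after median centring, 70 with hybridisation control scaling, 17 over all probe sets, and 5 after loess, after quantile normalization, with the mean of all probe sets, without the 3 suffixes and for second probe sets. No background share was taken at 1.5-fold in these settings. The probe set shares given further above, 27.8% and 18.4%, also count probe sets without a single symbol. Among the 96 genes tried singly, those at least 2-fold different as deposited that changed direction were Ppargc1b (0.059) and Mrm3 (0.106), both with hybridisation control scaling. The causes were not tested, except that leaving out probe sets leaves fewer genes (60 without the 3 suffixes). Dim probe sets limit what can be seen of the members' other probes.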
